A study of Danio rerio with 3 samples.

Results

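The genes described here encode the proteins of the cytosolic ribosome of the zebrafish. They were taken by name: every gene with values whose symbol begins with rpl or rps followed by a number, together with the stalk genes rplp0, rplp1 and rplp2 and the gene rpsa, but without the S6 kinases, whose symbols begin with rps6k. The rule on names used no expression value, but it was set with earlier results of these data known. It gave 83 genes of the 25386 with values, 48 with large subunit names and 35 with small subunit names. Only 81 of them encode ribosomal proteins. The symbol rps19bp1 belongs to a protein that binds one of them, and rpl7l1 to a relative of rpl7 that is known in mammals from the making of the large subunit.

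RNA of whole, dechorionated AB embryos was sequenced in 3 libraries, 1 per group. The maternal-zygotic (MZ) double mutants nup85-/-;nup133-/-, in which mother and embryo both carry the mutations in these nuclear pore scaffold genes, were sampled at 7 hours post fertilization (hpf) with dome morphology and at 4.3 hpf with the stage tag 1k, and are called the 7 hpf mutants and the 4.3 hpf mutants here. Wild-type embryos were sampled at 4.3 hpf at dome, a late blastula stage. The alleles and the number of embryos per library are not given in the labels. At 7 hpf genotype and age differ together from wild type, and at 4.3 hpf genotype and stage tag do, so their effects cannot be told apart.

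Values are FPKM, in which fragments are counted per kilobase of transcript and per library size, so that they can be compared between genes on a per-length scale. FPKM summed to 431333 in the 7 hpf mutants, 397357 in the 4.3 hpf mutants and 424486 in the wild-type library, and the table gives no counts, so the depth is unknown. The transcript of nup133 stood at 1.91, 0.31 and 11.7 FPKM in those libraries, and that of nup85 at 9.55, 10.35 and 13.2 FPKM, so only nup133 separated the genotypes by more than 2-fold. All 6 blastula markers were present, but they differed between the libraries in several directions: nanog stood at 850.3, 861 and 1244 FPKM, pou5f3 at 1096, 533 and 520.3 FPKM, sox3 at 269.6, 8.99 and 68.1 FPKM, sox19b at 30.1, 313 and 129 FPKM, h1m at 277, 489 and 865 FPKM, and ca15b at 15.6, 42.0 and 44.3 FPKM. The part of such differences between the libraries in the results was not tested. The 5 markers of differentiated tissue with values, among them those of muscle, blood and pancreas, reached at most 0.89 FPKM in any library. Since each group is 1 library, differences were not checked on replicates and none was tested. In whole embryos fewer cells of a type and less RNA per cell cannot be told apart.

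A ribosome joins a large subunit, which forms peptide bonds and holds the tunnel through which the new protein leaves, with a small subunit, which reads the messenger RNA. Each ribosomal protein is needed in about the same number of copies, with the flexible acidic stalk as an exception. An animal egg carries a large maternal store of ribosomes and of ribosomal protein messages. In vertebrates these messages begin with a run of pyrimidines, the TOP motif, through which their translation follows nutrient signalling, and many of their genes carry small nucleolar RNA (snoRNA) genes inside their introns.

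Ribosomal protein messages took the largest share of the library in the 7 hpf mutants and the smallest in the 4.3 hpf mutants. They made up 3.14% of all FPKM in the 7 hpf mutants, 1.55% in the 4.3 hpf mutants and 2.40% in the wild-type library. Their share in the 7 hpf mutants was thus 1.31 times that in wild type and 2.03 times that in the 4.3 hpf mutants, and the share in the 4.3 hpf mutants was 0.645 times that in wild type. The median member stood at 161, 69.4 and 118 FPKM in the 3 libraries. Among all genes with values, 72 members were within the 1000 most abundant genes of the 7 hpf mutants, 33 within those of the 4.3 hpf mutants and 52 within those of the wild-type library. Only 1 member, rpl12 in wild type, was among the 100 most abundant genes of any library. All 83 members averaged 1 FPKM or more and are among the 14306 genes that did so, called measured genes here.

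**Figure D1:**
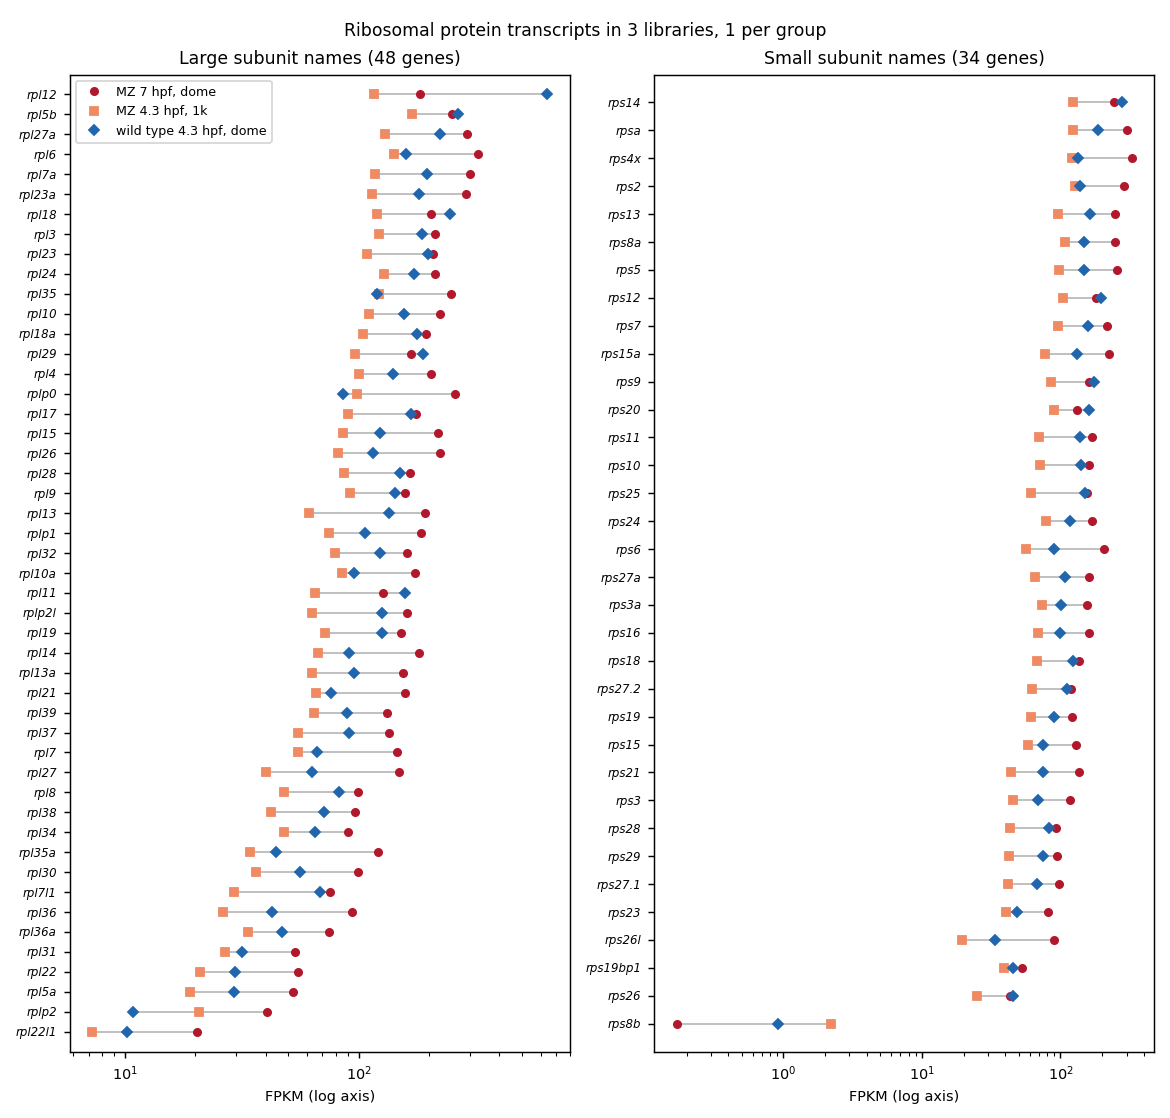
FPKM of 82 of the 83 ribosomal protein genes on a log axis, large subunit names on the left and small subunit names on the right, ordered by the mean of the libraries. Circles are the 7 hpf mutants, squares the 4.3 hpf mutants and diamonds the wild-type library, 1 library each. In 68 rows the circle lies farthest right and the square farthest left, and rpl12, rplp2 and rps8b break the pattern most visibly.

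The order of the libraries was the same for most members. In 68 of 83 genes (81.9%) FPKM was highest in the 7 hpf mutants, next in wild type and lowest in the 4.3 hpf mutants, where 16.8% of all measured genes had that order. Another 11 members had wild type highest and the 4.3 hpf mutants lowest, an order found in 10.8% of all measured genes. Among these were rpl5b, rpl11, rpl12, rpl18, rpl29, rps9, rps12, rps14, rps20 and rps26. Orders were taken without a margin, so some rest on small differences. Apart from rpl12, these named genes stood in the 7 hpf mutants at 0.80 (rpl11) to 0.95 (rps26) times their wild-type FPKM. In 3 members, rpl35, rplp0 and rplp2, wild type was lowest and the 7 hpf mutants highest, an order of 12.1% of all measured genes. For rpl35 this rests on 122 FPKM in the 4.3 hpf mutants against 119.8 FPKM in wild type. In rps8b alone the 4.3 hpf mutants were highest and the 7 hpf mutants lowest, which was the most frequent order of all measured genes (27.1%). The remaining 2 orders, of 18.3% and 14.4% of all measured genes, held 0 members. The count in the main order depends on how the libraries are scaled. It was 68 to 70 with equal sums of FPKM or the median of ratios, beside 15.0% to 22.4% of all measured genes. With proteasome genes as the scale it was 46, beside 11.6% of all measured genes.

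**Figure D2:**
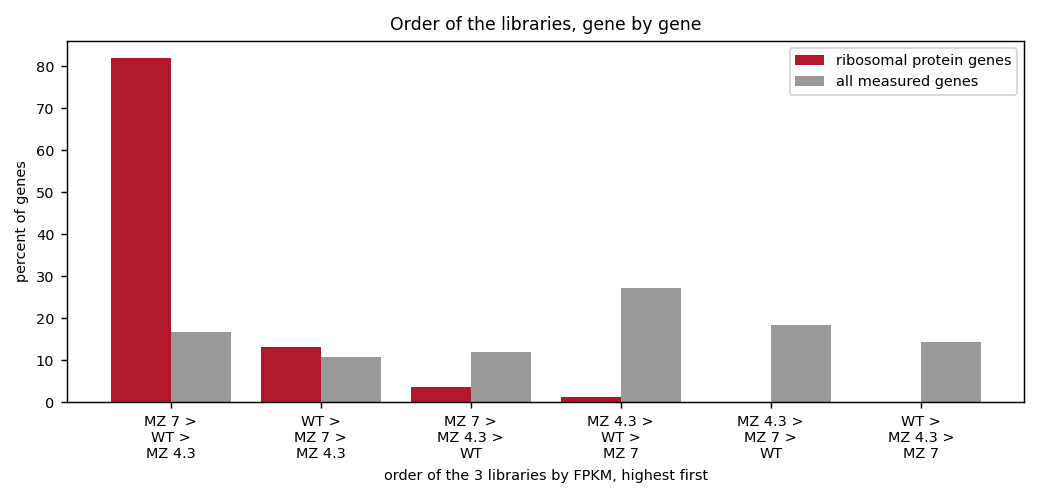
Percent of genes in each of the 6 possible orders of the libraries by FPKM, for the 83 ribosomal protein genes and for all 14306 measured genes. The order MZ 7 hpf, wild type, MZ 4.3 hpf holds 81.9% of the ribosomal protein genes and 16.8% of all measured genes.

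At the same dome morphology the ribosomal protein messages had a larger share of the 7 hpf mutants than of wild type. On the scale of log2(FPKM + 1), which is used for all ratios here, the median ratio of the 83 genes was 0.54, where all measured genes had -0.05 and the 2040 other genes that averaged 50 FPKM or more had -0.11. Adding 1 FPKM understates the ratios of low genes. The ratio was above 0 in 71 members, as it was in 47.4% of all measured genes and 40.9% of the other abundant genes. At least 2-fold higher in the 7 hpf mutants were 13 members (15.7%), beside 13.9% of all measured genes and 5.93% of the other genes of at least 50 FPKM, and 1 member was at least 2-fold lower, beside 12.5% and 9.22%. As deposited, the share at least 2-fold higher was near that of all measured genes. The 13 genes were rpl6, rpl7, rpl21, rpl27, rpl35, rpl35a, rpl36, rplp0, rplp2, rps2, rps4x, rps6 and rps26l. A higher median was not particular to the members. The 32 measured proteasome genes had a median of 0.45, and 7 of them (21.9%) were at least 2-fold higher. Scaling on proteasome genes moved the median of all genes to -0.45 and that of the members to 0.08, with 48 members above 0 and 2 at least 2-fold higher, beside 8.99% of all measured genes. The distance of the members from all genes was 0.59 as deposited, 0.60 with the median of ratios and 0.53 with proteasome scaling.

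At the same clock age the ribosomal protein messages had a smaller share of the 4.3 hpf mutants than of wild type. The median log2 ratio was -0.64, where all measured genes had 0.16 and the other genes of at least 50 FPKM had -0.19. The ratio was below 0 in 79 members, as in 42.2% of all measured genes and 66.2% of the other genes of at least 50 FPKM. At least 2-fold lower were 8 members (9.64%), beside 9.6% of all measured genes and 8.53% of the other abundant genes, and 0 were at least 2-fold higher, beside 16.6% and 2.89%. The 8 genes were rpl7l1, rpl11, rpl12, rpl13, rpl18, rps9, rps14 and rps25. As deposited, the share at least 2-fold lower was near both backgrounds, whereas the median of ratios gave 20 members, beside 11.8% of all measured genes. Relative to the median of all genes the members stood at -0.80 as deposited, -0.82 with the median of ratios (median of all genes -0.01) and -0.81 with proteasome scaling. Here too scaling could hardly change the distance.

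Between the mutant libraries the ribosomal protein messages had a larger share at 7 hpf than at 4.3 hpf. The median log2 ratio was 1.15, where all measured genes had -0.21 and the other genes of at least 50 FPKM had 0.14. The ratio was above 0 in 82 members, as in 39.9% of all measured genes and 58.7% of the other abundant genes. At least 2-fold higher in the 7 hpf mutants were 57 members (68.7%), beside 13.8% of all measured genes and 9.71% of the other abundant genes. The median lies near 2-fold, so this count depends on scaling. It was 45 with equal sums of FPKM, 76 with the median of ratios and 17 with proteasome scaling. Beside these stood 13.1%, 16.5% and 11.5% of all measured genes. Only rps8b was at least 2-fold lower, as were 22.2% of all measured genes and 11% of the other abundant genes. All 48 genes with large subunit names and 34 of 35 with small subunit names had a ratio above 0. The distance from all genes was 1.36, and 1.31 to 1.40 under the other scalings named above, which could hardly change it. Since these 3 comparisons are made from 3 libraries, each library enters a pair of them, and none is independent of the others.

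By standard deviation the members differed among themselves less than genes at large. The standard deviation of the log2 ratio over the members was 0.54 for the 7 hpf mutants against wild type, 0.41 for the 4.3 hpf mutants against wild type and 0.43 between the mutant libraries, where all measured genes had 1.03, 1.05 and 1.40. The other genes of at least 50 FPKM had 0.84, 1.06 and 1.49. By quartiles the contrast with them was smaller for the 7 hpf mutants against wild type, at 0.16 to 0.81 for the members and -0.48 to 0.24 for those genes. Of the lists described below, ribosome biogenesis had standard deviations of 0.63, 0.50 and 0.73 and proteasome 0.67, 0.65 and 0.54. Partners had 0.82, 0.56 and 0.71, translation factors 1.01, 1.11 and 0.99, and TOP regulators 0.83, 1.09 and 1.40. Levels within the group were ranked alike between libraries. Spearman's rho over the 83 genes was 0.78 between the 7 hpf mutant and wild-type libraries. It was 0.90 between the 4.3 hpf mutant and wild-type libraries and 0.90 between the mutant libraries. It was not computed for other genes, so it is not shown to be particular to the members. These values describe the libraries, and all genes of a library share its depth and composition. The middle members, from the lower to the upper quartile, lay within a factor of 1.78 in the 7 hpf mutants, 2.22 in the 4.3 hpf mutants and 2.16 in wild type.

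**Figure D3:**
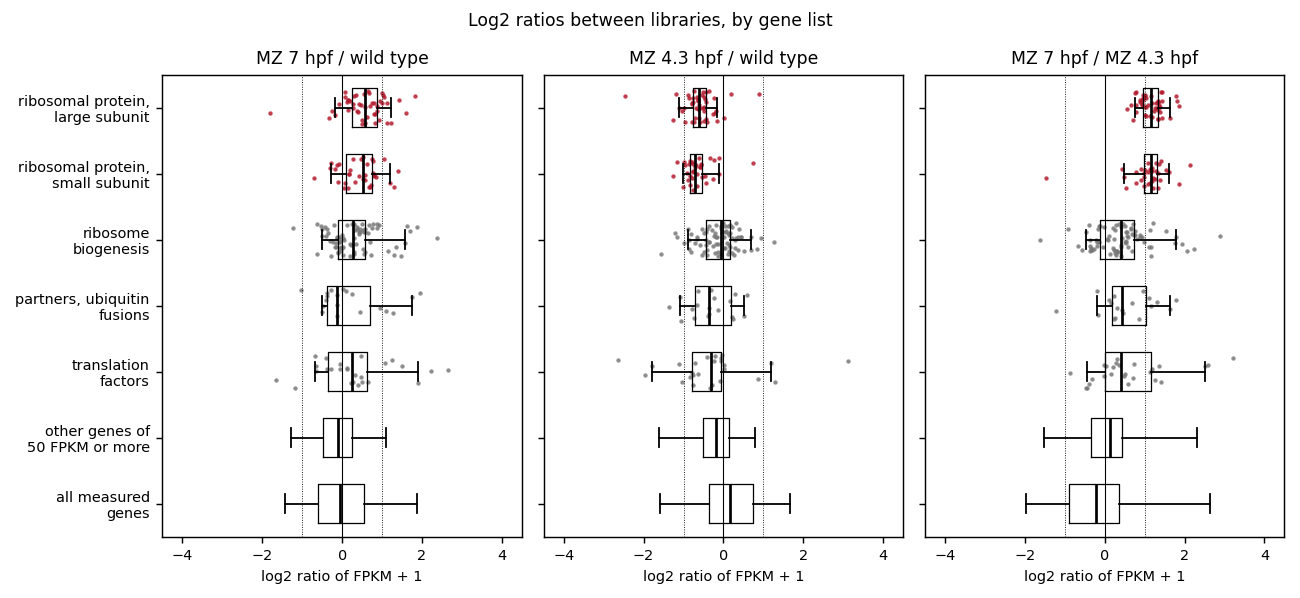
Log2 ratios of FPKM + 1 for the 3 comparisons. Dots are the genes of each list, and the last 2 rows, of other abundant genes and of all measured genes, show no dots. Boxes run from the lower to the upper quartile with the median as a thick line, whiskers reach the 5th and 95th percentiles, and dotted lines mark 2-fold. The ribosomal protein genes of both subunits lie mostly right of 0 in the MZ 7 hpf comparison with wild type, mostly left of 0 in the MZ 4.3 hpf comparison and mostly beyond 2-fold between the mutant libraries.

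Large and small subunit genes had close medians. For the 7 hpf mutants against wild type the medians were 0.56 for the 48 large subunit names and 0.52 for the 35 small subunit names. For the 4.3 hpf mutants against wild type they were -0.61 and -0.71, and between the mutant libraries both were 1.15. Of the FPKM of the 7 hpf mutants 1.83% came from large and 1.31% from small subunit names, of the 4.3 hpf mutants 0.916% and 0.631%, and of the wild-type library 1.43% and 0.968%.

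The stalk of the large subunit draws translation factors to the ribosome. Together with its base it held the widest spread of ratios to wild type among the 6 structural groups compared here. At 7 hpf this width rests on rpl12, at the base, with a log2 ratio of -1.79. The 6 groups were formed with earlier results of these data known. Without rpl12 the stalk genes ran from 0.35 to 1.81, beside -0.19 to 1.39 for the genes of the messenger RNA exit. At 4.3 hpf the stalk genes without rpl12 ran from -0.98 to 0.88. The gene rplp0, which encodes the protein that anchors the stalk, stood at 259 FPKM in the 7 hpf mutants, 98.1 in the 4.3 hpf mutants and 85.4 in wild type. It was thus 1 of 4 members with more FPKM in the 4.3 hpf mutants than in wild type, with log2 ratios to wild type of 1.59 at 7 hpf and 0.20 at 4.3 hpf. In the reference annotation the span of rplp0, introns included, overlaps that of the coding gene gusb. Whether their exons overlap was not checked. Where exons do, reads of the 2 genes cannot be told apart if the libraries keep no strand. The gene of the acidic stalk protein rplp1 followed the main order, with 185, 74.6 and 107 FPKM.

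The gene rpl12 encodes a protein at the base of the stalk. It stood at 184 FPKM in the 7 hpf mutants, 116 in the 4.3 hpf mutants and 640.0 in wild type. In wild type it was the most abundant ribosomal protein message, at rank 34 of all genes, against rank 344 in the 7 hpf mutants and rank 522 in the 4.3 hpf mutants. Both mutant libraries lay far below wild type, with log2 ratios of -1.79 at 7 hpf and -2.45 at 4.3 hpf, the lowest of the members in both comparisons. On a log2 scale of FPKM with nothing added, its level relative to the median member was 0.19 in the 7 hpf mutants, 0.74 in the 4.3 hpf mutants and 2.44 in wild type, so the wild-type value stood farthest from the median member. Without rpl12 the share of ribosomal protein messages was 3.09% in the 7 hpf mutants, 1.52% in the 4.3 hpf mutants and 2.25% in wild type, in the same order. With 1 wild-type library, a property of wild type at dome and a property of that library cannot be told apart.

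Proteins that bind the 5S RNA form a particle that joins the large subunit early and, when left over, restrains the p53 inhibitor Mdm2 in mammals. The gene rpl11 stood at 127 FPKM in the 7 hpf mutants, 65.1 in the 4.3 hpf mutants and 158 in wild type, with log2 ratios to wild type of -0.32 at 7 hpf and -1.27 at 4.3 hpf. The abundant gene of the other protein, rpl5b, stood at 250.1, 169.7 and 266 FPKM. Both were among the members with wild type highest, rpl5b by a small margin. The less abundant copy rpl5a, at 52.4, 19.0 and 29.2 FPKM, followed the main order.

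Around the peptidyl transferase centre, where peptide bonds are made, rpl3, rpl8 and rpl10 all followed the main order. Their log2 ratios to wild type ran from 0.19 to 0.51 at 7 hpf and from -0.76 to -0.50 at 4.3 hpf. The 8 genes of proteins of the exit tunnel and its mouth (rpl4, rpl17, rpl19, rpl23a, rpl26, rpl31, rpl35 and rpl39) ran from 0.06 to 1.05 at 7 hpf and from -0.90 to 0.02 at 4.3 hpf. The upper end of both ranges was rpl35, at the mouth of the tunnel, with 249 FPKM in the 7 hpf mutants, 122 in the 4.3 hpf mutants and 119.8 in wild type. Its 4.3 hpf values thus differed little between the genotypes. Those of rpl26, whose protein stands beside it on the ribosome's surface, differed more, as rpl26 had 223, 81.5 and 115 FPKM. In the reference annotation rpl35 overlaps the coding gene wdr38, whereas rpl26 overlaps none. In the same group rpl31 and rpl39 also overlap coding genes, with log2 ratios to wild type at 4.3 hpf of -0.23 and -0.45. That of rpl26 was -0.49. Whether overlap plays a part was not tested. As with rplp0, the overlaps are of whole gene spans, and exons were not checked. Reads cannot be told apart where exons overlap and the libraries keep no strand.

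Another 3 large subunit genes were among the 5 members with the largest ratios between the mutant libraries. The gene rpl35a stood at 121 FPKM in the 7 hpf mutants, 34.3 in the 4.3 hpf mutants and 44.4 in wild type. The gene rpl27 stood at 149, 40.0 and 63.0 FPKM, and rpl36 at 93.8, 26.2 and 42.6 FPKM. The log2 ratios of these 3 genes between the mutant libraries were 1.79, 1.87 and 1.80, and all were at least 2-fold higher in the 7 hpf mutants than in wild type. The genes rpl18, rpl29 and rpl13 were named after their values were seen. The gene rpl18 stood at 204, 119 and 245 FPKM, and rpl29 at 167, 96.4 and 189 FPKM. In both, the 7 hpf mutants lay below wild type. The gene rpl13, with 192, 61.6 and 135 FPKM, lay above wild type at 7 hpf (log2 ratio 0.51) and more than 2-fold below it at 4.3 hpf (log2 ratio -1.12).

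In the small subunit, rps2, rps3 and rps23 encode proteins at the entry of the messenger RNA channel and at the decoding site. All 3 followed the main order, with log2 ratios to wild type from 0.73 to 1.06 at 7 hpf and from -0.59 to -0.12 at 4.3 hpf. The gene rps2 stood at 288 FPKM in the 7 hpf mutants, 127 in the 4.3 hpf mutants and 138 in wild type. The 4 genes of the exit side of the channel were mixed. Wild type was highest for rps14, at 245, 124 and 278 FPKM, and by a small margin for rps26, at 43.3, 24.9 and 45.6 FPKM. The main order held for rps28, at 93.3, 43.4 and 82.3 FPKM, and for rps26l, at 89.5, 19.5 and 33.6 FPKM. Their log2 ratios to wild type ran from -0.19 to 1.39 at 7 hpf and from -1.16 to -0.75 at 4.3 hpf.

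The gene rps6 encodes the protein that S6 kinases phosphorylate downstream of nutrient signalling. It stood at 208 FPKM in the 7 hpf mutants, 56.6 in the 4.3 hpf mutants and 89.7 in wild type. Its log2 ratio between the mutant libraries, 1.86, was the third largest of the members. The gene rps4x was the most abundant member of the 7 hpf mutants, with 326 FPKM, against 122 in the 4.3 hpf mutants and 133 in wild type. By contrast rps25, whose protein is known from internal ribosome entry, stood at 155, 61.5 and 149.7 FPKM, so that the 7 hpf mutant and wild-type libraries were close and the 4.3 hpf mutants were lower, with a log2 ratio to wild type of -1.27.

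Small differences between the mutant libraries were found in rps19bp1, rps20 and rpl5b, with log2 ratios from 0.43 to 0.56. The gene rps20 stood at 132 FPKM in the 7 hpf mutants, 90.0 in the 4.3 hpf mutants and 161 in wild type, so the 7 hpf mutants lay below wild type. The binding protein gene rps19bp1, at 53.0, 39.0 and 45.8 FPKM, had the smallest ratio of the 82 members that were higher in the 7 hpf mutants than in the 4.3 hpf mutants.

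Pairs of related genes showed which copy supplies most of the message. The S8 pair was all but a single gene: rps8a stood at 249 FPKM in the 7 hpf mutants, 108 in the 4.3 hpf mutants and 148.5 in wild type, whereas rps8b stood at 0.17, 2.22 and 0.92 FPKM. The rps8b share of the pair was therefore 0.0682%, 2.02% and 0.616%. Such low values are the least certain of the group, and reads of near-identical copies may have been divided between them, in a way that the sources used here do not give.

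The acidic stalk protein P2 has 2 genes, and their balance differed between libraries. The minor gene rplp2 stood at 40.5 FPKM in the 7 hpf mutants, 20.8 in the 4.3 hpf mutants and 10.8 in wild type. The major gene rplp2l stood at 161, 63.4 and 126 FPKM. The share of rplp2 in the pair was 20.1% and 24.7% in the mutant libraries, against 7.91% in wild type. At 4.3 hpf the genes of the pair differed in direction, with log2 ratios of the 4.3 hpf mutants to wild type of 0.88 for rplp2, the highest of the members, and -0.98 for rplp2l.

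The S26 pair, whose protein lies at the exit of the messenger RNA channel, did not have the same leading gene in every library. In the 7 hpf mutants rps26l stood at 89.5 FPKM and rps26 at 43.3 FPKM. In the 4.3 hpf mutants they stood at 19.5 and 24.9 FPKM, and in wild type at 33.6 and 45.6 FPKM. The share of rps26l was 67.4% in the 7 hpf mutants, 44.0% in the 4.3 hpf mutants and 42.4% in wild type, so at dome the mutant and wild type differ in the leading gene. The log2 ratio of rps26l between the mutant libraries, 2.14, was the largest of the members. In the reference annotation rplp2 and rps26l are next to each other among coding genes, the only members that are. They had the highest and the fourth highest log2 ratio of the 7 hpf mutants to wild type, 1.81 and 1.39. For the 4.3 hpf mutants against wild type they differed in direction, with 0.88 and -0.75. Between the mutant libraries their ratios were 0.93 and 2.14.

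For the L5 pair the minor gene rpl5a took 17.3% of the summed FPKM in the 7 hpf mutants, 10.1% in the 4.3 hpf mutants and 9.90% in wild type. In the S27 pair the shares stayed on the same side of even, with rps27.1 at 45.0%, 40.2% and 37.5% beside rps27.2. In the L22 pair the protein of rpl22 is known in mammals to regulate the message of rpl22l1. Here rpl22 stood at 54.8, 21.0 and 29.6 FPKM and rpl22l1 at 20.4, 7.26 and 10.25 FPKM. The rpl22l1 share was 27.1% in the 7 hpf mutants, 25.7% in the 4.3 hpf mutants and 25.7% in wild type, so the proportions were close while the sum differed. The pair of rpl7 and rpl7l1, only one of which is a ribosomal protein gene, differed in proportion, with rpl7l1 at 34.2% and 34.8% in the mutant libraries and 51.0% in wild type.

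**Figure D4:**
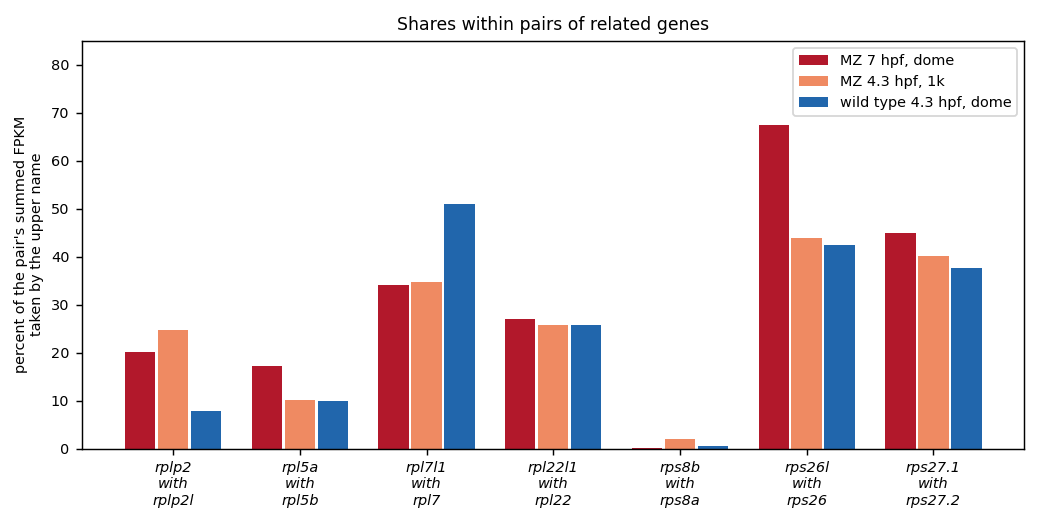
Percent of the summed FPKM of each pair of related genes that the upper of its names takes, for the 7 hpf mutants, the 4.3 hpf mutants and wild type from left to right within a pair. The shares of rpl22l1 are nearly level at 25.7% to 27.1%, whereas rps26l takes 67.4% in the 7 hpf mutants and rplp2 takes 7.91% in wild type against 20.1% and 24.7% in the mutant libraries.

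Many members are host genes of snoRNAs, the guides of chemical marking of ribosomal RNA. By the RefSeq annotation of the assembly GRCz12tu, which is not the authors' build and was used only for names and neighbours, 21 of the 83 members (25.3%) hold at least 1 snoRNA gene, where 67 of the 13640 measured coding genes (0.491%) do. These 21 members hold 56 of the 260 annotated snoRNA genes (21.5%), with 7 in rpl4 and 3 in rpl12. Members with and without a snoRNA gene had close median log2 ratios: 0.54 and 0.55 for the 7 hpf mutants against wild type, -0.71 and -0.63 for the 4.3 hpf mutants against wild type, and 1.20 and 1.14 between the mutant libraries. In the same annotation 15 members overlap another coding gene, and their medians of 0.58, -0.48 and 1.02 had the same signs as those of the 68 others, 0.52, -0.65 and 1.18.

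Some ribosomal proteins are encoded by genes with other kinds of name. Of the genes that join a ubiquitin-like protein to the small subunit protein S30, faua stood at 65.8 FPKM in the 7 hpf mutants, 20.6 in the 4.3 hpf mutants and 26.9 in wild type. The other, faub, named after its values were seen, stood at 124, 111 and 123 FPKM, so it varied little between libraries. Another 2 genes carry a ribosomal protein symbol only in the reference annotation and were also named after their values were seen: rps27l, at 31.4, 10.3 and 13.2 FPKM, and rps11b, at 9.37, 2.71 and 0.13 FPKM. Neither is among the 83 members.

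Other genes of ribosome production and translation had medians closer to 0. Their counts stand beside 13.9% of all measured genes at least 2-fold higher and 12.5% lower in the 7 hpf mutants than in wild type, 16.6% and 9.6% in the 4.3 hpf mutants than in wild type, and 13.8% and 22.2% in the 7 hpf than in the 4.3 hpf mutants. Of 78 ribosome biogenesis genes 9 were higher by 2-fold or more and 1 lower in the 7 hpf mutants than in wild type (median log2 ratio 0.27), 1 was higher and 3 were lower in the 4.3 hpf mutants than in wild type (median -0.06), and 12 were higher and 1 lower in the 7 hpf than in the 4.3 hpf mutants (median 0.40). The shares higher were 11.5%, 1.28% and 15.4%, below or near those of all measured genes, and the shares lower were 1.28%, 3.85% and 1.28%, all below them. Among them nifk, a nucleolar partner of the antigen Ki-67, stood at 54.7 FPKM in the 7 hpf mutants, 6.55 in the 4.3 hpf mutants and 16.1 in wild type. The gene gnl3, which encodes nucleostemin, stood at 37.5, 8.26 and 6.40 FPKM. The small subunit processome gene imp4 stood at 47.6, 13.45 and 41.5 FPKM. These 3 genes thus shared the highest level in the 7 hpf mutants, while wild type was close to it for imp4 only.

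Against wild type, partners of the ribosome and ubiquitin fusions were split almost evenly at 7 hpf, with 9 log2 ratios above 0 and 10 below. At 4.3 hpf 6 lay above 0 and 13 below. All measured genes had medians of -0.05 and 0.16 in these comparisons. Of 19 measured genes 4 were higher by 2-fold or more and 1 lower in the 7 hpf mutants than in wild type (median -0.13), 0 were higher and 3 lower in the 4.3 hpf mutants than in wild type (median -0.35), and 5 were higher and 1 lower in the 7 hpf than in the 4.3 hpf mutants (median 0.43). In these few genes the shares were 21.1%, 0% and 26.3% higher and 5.26%, 15.8% and 5.26% lower. The gene naca, a subunit of the complex that meets new proteins at the tunnel mouth, stood at 320.4 FPKM in the 7 hpf mutants, 128 in the 4.3 hpf mutants and 271 in wild type.

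Translation factors and other messages of the TOP class, 26 measured genes, had medians of 0.25 for the 7 hpf mutants against wild type, -0.31 for the 4.3 hpf mutants against wild type and 0.41 between the mutant libraries. Their counts at 2-fold were 6 higher and 2 lower, 3 higher and 5 lower, and 8 higher and 0 lower. As shares these were 23.1%, 11.5% and 30.8% higher and 7.69%, 19.2% and 0% lower. The elongation factor gene eef1a1l1 exceeded every ribosomal protein gene, with 4565 FPKM in the 7 hpf mutants, 493 in the 4.3 hpf mutants and 1913 in wild type. It therefore had the order of the ribosomal protein genes with larger ratios, 1.25, -1.95 and 3.21 on the log2 scale. The gene eef2b, the factor that moves the ribosome along the message, stood at 443, 200.0 and 694 FPKM, with wild type highest.

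Genes that regulate TOP messages and ribosomal protein genes, 27 in number, had medians of 0.07, 0.00 and -0.02 in the 3 comparisons. They were at least 2-fold higher in 4, 4 and 3 cases and lower in 5, 2 and 6. The shares higher, 14.8%, 14.8% and 11.1%, were near those of all measured genes, and the shares lower were 18.5%, 7.41% and 22.2%. The gene mych, of the Myc family that promotes ribosome production, stood at 239.7 FPKM in the 7 hpf mutants, 4.77 in the 4.3 hpf mutants and 92.9 in wild type. The translation repressor gene eif4ebp2 was lowest in the 7 hpf mutants, with 28.5, 111 and 78.6 FPKM. Their relatives in the list, named after their values were seen, went other ways. Highest in the 7 hpf mutants were eif4ebp1, at 70.0, 38.55 and 56.0 FPKM, and eif4ebp3, at 23.6, 10.3 and 14.9 FPKM. Wild type was highest for eif4ebp3l, at 99.1, 82.3 and 204.7 FPKM. The 4.3 hpf mutants were highest for mycb, at 9.11, 11.1 and 3.51 FPKM, and myca, at 0.93, 2.30 and 0.54 FPKM. The 32 measured proteasome genes used for scaling had medians of 0.45, 0.03 and 0.37. Of these, 7, 3 and 1 genes were higher by 2-fold or more and 1, 1 and 2 lower. As shares these were 21.9%, 9.4% and 3.1% higher and 3.1%, 3.1% and 6.25% lower.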

How the data were processed

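Total RNA of whole embryos was sequenced in 3 libraries, 1 per group. Tools named in the submitters' processing notes are Trimmomatic 0.36, Bowtie2 2.2.5 and RSEM 1.2.8, with the build GRCz11. The authors deposited 1 column of FPKM per library, per the file headers, rounded to 0.01. Not given in the sources used here are poly(A) selection, strandedness and the handling of reads that gene copies share. Of 26437 rows, 1051 without values were left out. Ratios are log2((a + 1)/(b + 1)), with 1 FPKM as pseudocount, for the 14306 genes that averaged 1 FPKM or more. With 1 library per group no test, error or p-value was possible. Depth could not be recovered: ratios of low values (0.2 to 0.8 FPKM) peaked weakly at 0.99 to 1.05.

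The members, gene lists, structural groups and pairs were chosen with earlier results of these data known. Of 202 list names 191 matched. Members were named by role, as pair members, as the 5 largest ratios in each direction or as the most and least abundant, and list genes among the 4 largest ratios. Others are said to have been named after their values were seen. All 83 members matched the RefSeq gene table of GRCz12tu by gene ID, used for names, gene types and neighbours only. No sequences are printed, and some genes are not reported here by name. The alternatives were other pseudocounts, filters, scalings, thresholds and member sets. The scripts were tested on simulated data. The software was pandas 2.3.3 with numpy 2.4.6 under Python 3.11.15, scipy 1.17.1, and for plots matplotlib 3.10.9.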

Additional observations from a re-analysis of the deposited data

How the results depend on the processing

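Of 141 recomputed values 113 kept within the tolerance and 28 did not. The tolerance was the 95% order-statistic interval of a median over its genes, 1.5 times for counts and shares, and 0.1 for the subunit difference. The interval runs over genes and does not measure differences between replicate libraries. Values without the filter on low values could not move, since all members averaged 1 FPKM or more, but they count among the 113. No median changed sign. No paired analysis was possible because each group has 1 library, and no replicate could be left out. For the 7 hpf mutants against wild type, the median became 0.077 with 2 genes at least 2-fold higher under proteasome scaling (chosen after seeing the data, as was leaving out rpl12, the related pairs, or rps19bp1 and rpl7l1); the higher count was 6 among the 47 genes whose symbol shares its number with no other and 37 at 1.5-fold; the lower count was 2 with a pseudocount of 0.1 FPKM and at 1.5-fold, and 0 without rpl12. For the 4.3 hpf mutants against wild type, the median was -0.55 with equal sums, -0.56 with equal sums over other genes, -0.83 with the median of ratios and -0.73 with proteasome scaling; the lower count was 20 with the median of ratios, 5 among the 47 genes and 51 at 1.5-fold, and the higher count 1 with a pseudocount of 0.1 FPKM and 2 at 1.5-fold. Between the mutant libraries, the median was 1.42 with the median of ratios and 0.78 with proteasome scaling; the higher count was 17 with proteasome scaling and 31 among the 47 genes; the lower count was 0 with a pseudocount of 5 FPKM, with a mean of at least 5 FPKM, among the 47 genes and without the related pairs, settings that leave out or dampen rps8b; and the subunit difference was -0.15 among the 47 genes. Those 47 genes took 1.91%, 0.959% and 1.54% of the FPKM in the MZ 7 hpf, MZ 4.3 hpf and wild-type libraries. Smaller counts and shares among the 47 genes follow in part from their number; the cause of the other differences was not tested. At 1.5-fold, 23.94% of all measured genes were higher and 25.97% lower in the 7 hpf mutants than in wild type. For the 4.3 hpf mutants against wild type, these shares were 30.68% and 17.47%. With the median of ratios at 2-fold, 12.76% were higher and 11.84% lower in that comparison. Between the mutant libraries, 11.54% were higher and 30.93% lower at 2-fold with proteasome scaling. With a pseudocount of 0.1 FPKM, 16.38% were lower in the 7 hpf mutants than in wild type. With the same pseudocount, 21.09% were higher in the 4.3 hpf mutants than in wild type. Between the mutant libraries, 12.74% were lower with a pseudocount of 5 FPKM and 24.07% with a mean of at least 5 FPKM. Restricting the members to the 47 genes, or leaving out rpl12 or the related pairs, leaves the shares of all measured genes unchanged. Depth is unknown and limits rps8b most.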

Other observations

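The 11 genes whose symbols begin with rps6k encode kinases, several of which phosphorylate the ribosomal protein S6, and were left out by the rule on names. The most abundant, rps6kb1b, stood at 141 FPKM in the 7 hpf mutants, 117 in the 4.3 hpf mutants and 120.0 in wild type. It had the main order of the ribosomal protein genes but differed little, with log2 ratios to wild type of 0.23 and -0.04. In contrast rps6kal stood at 6.81, 45.5 and 23.5 FPKM, rps6kc1 at 5.55, 21.5 and 11.6 FPKM and rps6ka1 at 1.23, 10.1 and 3.53 FPKM. These 3 genes, named after their values were seen, were highest in the 4.3 hpf mutants and lowest in the 7 hpf mutants. That order, the reverse of most ribosomal protein genes, was the most frequent of all measured genes (27.1%).

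The nucleolar genes npm1a and ncl, also named after their values were seen, stood at 543 and 713 FPKM in the 7 hpf mutants, 281 and 386 FPKM in the 4.3 hpf mutants, and 563 and 715 FPKM in wild type. The 7 hpf mutant and wild-type libraries were close for both genes.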
